A study of Mus musculus with 2 samples.

Results

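The insulin-like growth factor (IGF) family was described in wild-type and Bmi1 null mouse embryonic fibroblasts (MEFs). Bmi1 belongs to Polycomb repressive complex 1, which ubiquitylates histone H2A at repressed genes. It comprised 10 genes, the ligands Igf1 and Igf2, the receptors Igf1r and Igf2r, and the binding proteins Igfbp2, Igfbp3, Igfbp4, Igfbp5, Igfbp6 and Igfbp7, out of 18194 genes with a probe set of their own. All 28 probe sets annotated to exactly 1 of these genes were included. The genes were chosen by name, but with differences in this same contrast already known, so their values are a description and carry no test. There was 1 array of wild-type MEFs and 1 array of Bmi1 null MEFs, and therefore no replicate and no error between cultures. The fibroblasts came from wild-type and null littermates, were labelled as C57BL/6 and male, and both lines carried the TBX2 construct that immortalised them. Cells were grown in medium with fetal bovine serum. Each group was 1 line, so genotype, line, culture and array cannot be told apart.

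IGF-I and IGF-II are secreted growth factors that signal through the IGF-I receptor, a tyrosine kinase, to the PI3K-AKT and RAS-ERK pathways. The IGF-II receptor has no kinase and carries IGF-II to lysosomes for degradation, besides sorting lysosomal enzymes. Binding proteins hold the ligands in the extracellular space and can limit or prolong their action, and proteases that cleave the binding proteins set the ligands free. In fibroblasts this system is known for its part in growth, survival and matrix production.

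Signals are MAS5 intensities on a linear scale, and ratios are null over wild-type. A signal under 100, which was 0.2 times the trimmed mean of an array, was treated as a floor; where 1 array lay under it, the fold is a lower bound, and where both did, the probe set was called not measured. The largest differences lay in the ligands and 1 binding protein. Of the 9 genes measured, Igf1, Igf2 and Igfbp2 passed 2-fold on the higher side in null MEFs, 0 passed it on the lower side, and the other 6 lay between. That is 33.3% of the family on the higher side, where 5.73% of all 11766 measured genes passed 2-fold on the higher and 5.16% on the lower side. By probe set, 6 of 23 lay above 2-fold and 0 below it, where 5.06% and 5.1% of all 20620 measured probe sets did. The median log2 ratio of the 9 genes was 0.24, against 0.006 over all measured genes. Since the genes were chosen with this contrast in view, nothing is read from these shares.

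**Figure D1:**
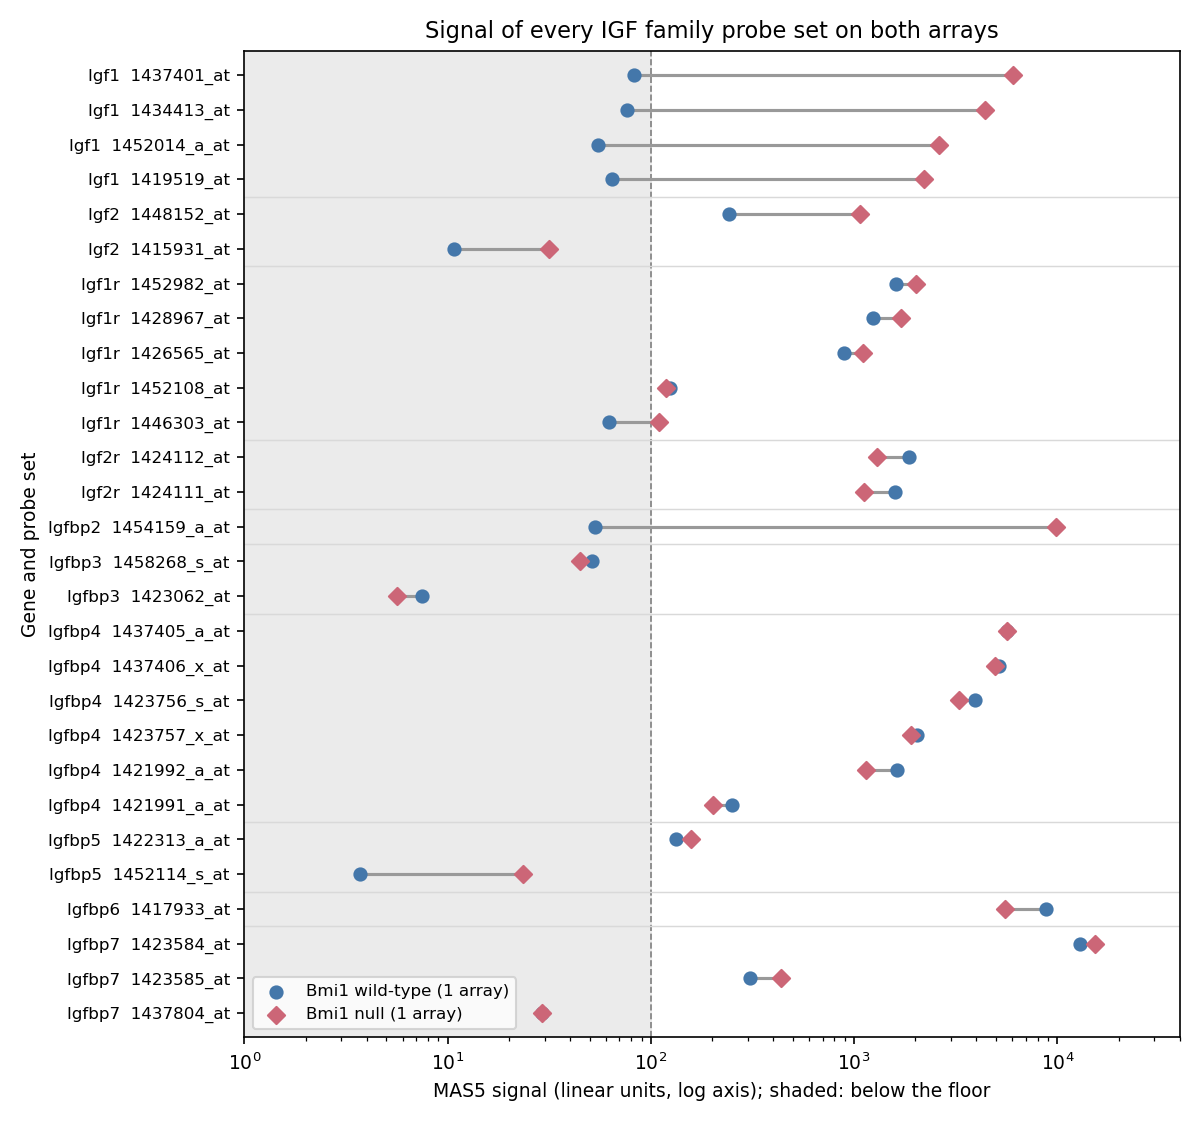
MAS5 signal (x axis, log scale) of each of the 28 probe sets of the IGF family (y axis), with circles for the Bmi1 wild-type array, diamonds for the Bmi1 null array and a line joining the pair. The shaded area lies below the floor of 100. The 4 Igf1 probe sets and the Igfbp2 probe set run from the shaded area to signals of 2207 to 9797 in null MEFs, whereas the pairs of both receptors and of Igfbp4 lie close together.

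The labels were checked before these results. Bmi1 read 9933 in wild-type and 2146 in null MEFs at 1 probe set, and 931 and 831 at another. Whether either one covers deleted sequence was not analysed here. The 9 control spike-in probe sets above the floor had null to wild-type ratios of 0.890 to 1.06. The Y-linked genes Eif2s3y, Uty and Kdm5d had signals of 712 to 1683 at their brightest probe sets in wild-type MEFs and 15.3 to 26.5 in null MEFs, which goes against the label of the null array as male. Xist, the RNA of the inactive X chromosome in females, was not higher there, with 153 and 124 at its brightest probe set and signals under the floor at its other probe sets. Of 11 fibroblast markers, 9 passed the floor in both lines, among them vimentin (19519 and 19233), and the summed signals were 99182 and 115353. Those past 2-fold on the higher side were Lum, a matrix proteoglycan under the floor in wild-type MEFs (68.0 and 729), and the collagens Col3a1 (4.38-fold) and Col1a1 (2.16-fold). Those on the lower side were Thy1, under the floor in null MEFs (375 and 50.7), and the PDGF receptor Pdgfra (9.31-fold). Among 4587 genes outside the family with at least 2 probe sets whose signals both passed the floor, the log2 ratios of the brightest pair of a gene had an SD of 0.29, and of 0.22 where the dimmer probe set reached 2000 on at least 1 array. This SD covers the error between probe sets alone.

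Igf1 had the larger difference of the ligands. Its probe sets read 82.7, 76.7, 64.7 and 54.9 in wild-type MEFs, all below the floor. The same probe sets read 6057, 4423, 2207 and 2601 in null MEFs. Signal was thus at least 60.6-fold higher in null MEFs at the brightest probe set and at least 22.1-fold at the probe set with the lowest bound. By these bounds 4 of the 11766 measured genes had a higher ratio than Igf1. The transcript annotated antisense to Igf1, Igf1os, gave signals under the floor (7.59 and 17.2).

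Igf2, an imprinted gene expressed mainly from the paternal copy and known as a growth factor of the embryo, had a measurable signal in both lines. One probe set read 241 in wild-type and 1069 in null MEFs, 4.43-fold higher (log2 ratio 2.15). The other read 10.8 and 31.5, below the floor on both arrays, so the fold rests on 1 probe set. Across all measured genes 181 had a higher ratio. The antisense transcript Igf2os was also below the floor (14.2 and 32.6), and Ins2, the next gene along the chromosome, was 1.26-fold higher (169 and 212).

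The promoters of both ligands are shown because their signals were higher in the same line. RefSeq sequence of build GRCm38.p6 was used, from 250 bases before to 50 after each annotated start, and all 10 genes matched, with 14 starts in all. Capitals mark CpG dinucleotides, the site of DNA methylation in mammals. Igf1 had 1 start, on the + strand, with 6 CpGs, and the one of 4 Igf2 starts with the highest number, on the − strand, had 24. The other Igf2 starts had 2, 7 and 14. The median over all 32851 promoters was 7, and the family ran from 2 to 48, the highest being Igf1r. The letters TATAAA, searched on both strands and present in 13.6% of all promoters, occurred in those of Igfbp4 and Igfbp6.
Igf1 chr10:87860861-87861160: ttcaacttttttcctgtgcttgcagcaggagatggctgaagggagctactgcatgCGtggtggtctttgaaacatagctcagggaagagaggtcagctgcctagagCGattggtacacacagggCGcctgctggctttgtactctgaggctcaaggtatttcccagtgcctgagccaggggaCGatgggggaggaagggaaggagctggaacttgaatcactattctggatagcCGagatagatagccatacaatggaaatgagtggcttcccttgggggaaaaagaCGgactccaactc
Igf2 chr7:142658755-142659054: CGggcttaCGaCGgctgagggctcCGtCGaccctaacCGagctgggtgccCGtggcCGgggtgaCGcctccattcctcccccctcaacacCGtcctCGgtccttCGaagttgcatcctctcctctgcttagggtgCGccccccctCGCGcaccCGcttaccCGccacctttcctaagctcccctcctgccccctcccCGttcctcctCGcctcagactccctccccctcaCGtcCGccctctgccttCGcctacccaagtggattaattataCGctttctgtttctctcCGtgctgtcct

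The receptors differed far less than the ligands. Igf1r, the signalling receptor, read 1614, 1239 and 894 in wild-type MEFs at its 3 brightest probe sets and 2005, 1706 and 1110 in null MEFs. Null signal was the higher one at each, by 1.24-fold to 1.38-fold. The remaining probe sets lay near the floor, at 124 and 119 for one and at 62.3 and 109 for the other. Over the 4 probe sets whose signals both passed the floor the mean log2 ratio was 0.26 ± 0.22 (SD, n = 4 probe sets). The 3 brightest gave 0.31, 0.46 and 0.31, and the one near the floor gave −0.064. This SD is between probe sets of 1 pair of arrays and is no error between cultures.

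Igf2r, the clearing receptor, went the other way. Its probe sets read 1858 and 1590 in wild-type MEFs against 1290 and 1118 in null MEFs, 1.44-fold and 1.42-fold lower. The mean log2 ratio was −0.52 ± 0.014 (SD, n = 2 probe sets), and 1622 of the measured genes had a lower ratio. A further probe set, annotated to Igf2r together with its antisense transcript Airn, was left out by the rule and read 4.31 and 12.4. Airn, which silences the paternal Igf2r copy, was close to the floor at its brightest probe set (142 and 134). Igf2r is the family member that the study lists with a Bmi1-dependent peak of ubiquitylated H2A in its promoter. The study's promoter window is wider than the stretch shown here, and where the peak lies in it was not analysed. The Igf2r sequence, on the − strand, is shown because of this listing. It held 34 CpGs, and 92.3% of all promoters had fewer.
Igf2r chr17:12769657-12769956: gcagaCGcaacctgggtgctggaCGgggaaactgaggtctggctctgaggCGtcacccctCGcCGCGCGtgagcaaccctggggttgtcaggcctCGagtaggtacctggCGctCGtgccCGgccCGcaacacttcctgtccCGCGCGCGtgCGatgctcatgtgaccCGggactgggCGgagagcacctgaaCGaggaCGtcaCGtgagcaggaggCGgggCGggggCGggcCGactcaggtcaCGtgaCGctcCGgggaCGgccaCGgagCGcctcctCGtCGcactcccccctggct
The letters GGGCGG, the core of a GC box, occurred 3 times in it on either strand and are present in 35.7% of all promoters. The letters CACGTG, an E-box, occurred 2 times and are present in 7.15%.

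Among the binding proteins, Igfbp2 stood apart. It is abundant in fetal tissues and binds IGF-II with preference. Its single probe set read 53.1 in wild-type and 9797 in null MEFs, at least 98.0-fold higher, and by this bound 0 measured genes had a higher ratio. No other probe set was there to check it, and its suffix (_a_at) marks probes that match several transcripts of a gene. Its nearest neighbour on chromosome 1 is Igfbp5, a binding protein of muscle, bone and fibroblasts, which read 133 in wild-type and 157 in null MEFs, 1.18-fold higher. A second Igfbp5 probe set gave 2 signals under the floor (3.70 and 23.6). These adjacent genes of opposite orientation, 1 far above the threshold and 1 under it, are shown by their promoters. The first of 2 Igfbp2 starts, on the + strand, had 18 CpGs, 3 copies of GGGCGG and 1 of CACGTG, whereas the Igfbp5 start, on the − strand, had 10 CpGs and 0 of either motif.
Igfbp2 chr1:72824230-72824529: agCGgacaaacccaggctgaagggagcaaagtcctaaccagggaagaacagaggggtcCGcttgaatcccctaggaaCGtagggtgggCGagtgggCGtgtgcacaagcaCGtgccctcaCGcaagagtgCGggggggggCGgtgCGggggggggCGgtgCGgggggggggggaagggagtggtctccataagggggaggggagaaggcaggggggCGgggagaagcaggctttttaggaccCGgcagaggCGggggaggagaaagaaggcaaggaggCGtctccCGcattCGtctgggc
Igfbp5 chr1:72874816-72875115: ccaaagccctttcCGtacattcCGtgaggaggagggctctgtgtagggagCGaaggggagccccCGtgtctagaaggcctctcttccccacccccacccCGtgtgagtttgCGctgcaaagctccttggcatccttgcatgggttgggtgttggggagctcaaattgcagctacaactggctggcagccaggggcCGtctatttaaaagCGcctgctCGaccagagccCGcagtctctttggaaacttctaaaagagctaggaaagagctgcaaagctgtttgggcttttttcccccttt

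The other binding proteins differed by less than 2-fold or were not measured. Igfbp4, which mostly inhibits IGF action, had 6 probe sets, and its signals ran from 252 to 5670 in wild-type and from 202 to 5657 in null MEFs. Null signal was the lower one at all 6, by 1.00-fold to 1.41-fold (mean log2 ratio −0.21 ± 0.18, SD, n = 6 probe sets), although quantile normalization turned the brightest probe set to a log2 ratio of 0.0081. Igfbp6, which prefers IGF-II, read 8749 in wild-type and 5510 in null MEFs at its only probe set, 1.59-fold lower, and had the lowest ratio of the family (log2 ratio −0.67). Igfbp7, a relative with low affinity for IGFs that is secreted into the matrix, read 12989 and 15365 at its brightest probe set, 1.18-fold higher, and 309 and 438 at another, 1.42-fold higher. A further probe set was below the floor (29.2 and 29.1). Igfbp3, the main carrier of IGFs in serum, gave no usable signal, with 51.5 and 7.49 in wild-type and 45.0 and 5.67 in null MEFs. Igfbp1, a product of liver that is not among the 10 genes, was likewise not measured in either line.

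**Figure D2:**
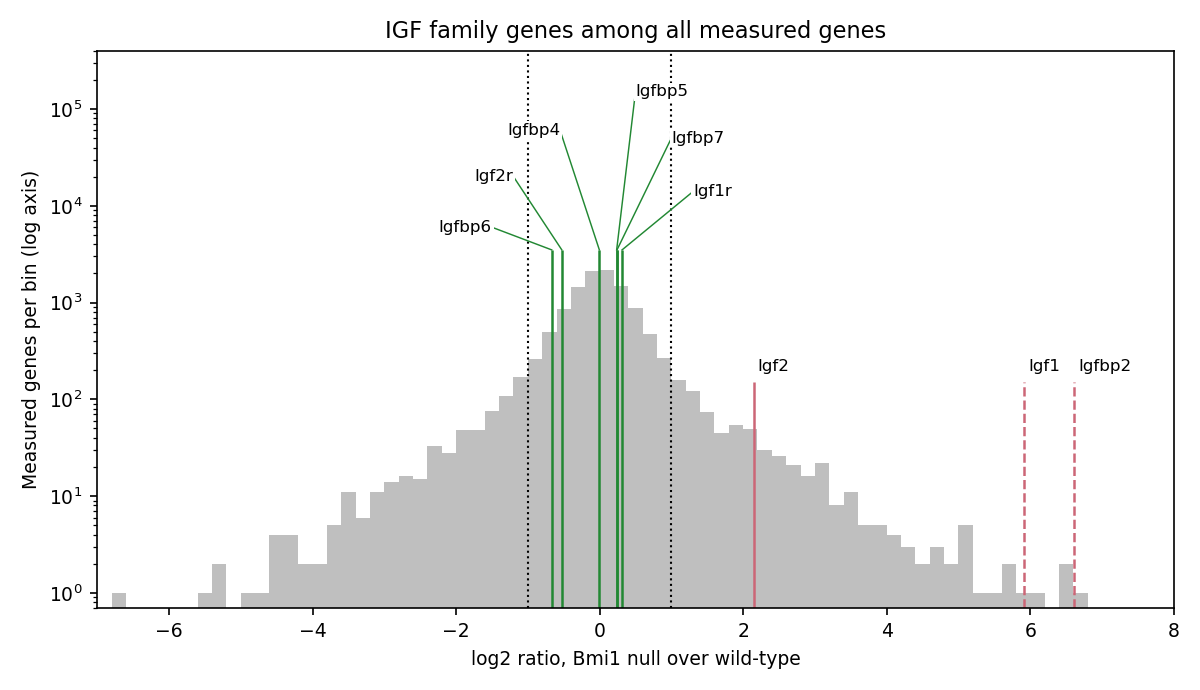
Distribution of log2 ratios, null over wild-type (x axis), of the 11766 measured genes (y axis, genes per bin of 0.2, log scale). Vertical lines mark the 9 measured IGF family genes, dashed where the ratio is a lower bound, and dotted lines mark 2-fold. Igf2, Igf1 and Igfbp2 lie at 2.15, 5.92 and 6.61 and the other 6 between −0.67 and 0.31.

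The genes beside the family on the chromosome were read as well. The nearest protein-coding genes with a probe set, 1 on each side of each member, were taken in RefSeq order and came to 18 outside the family. Of the 10 measured, 0 passed 2-fold on the higher side and 1 on the lower side, Tns3 beside Igfbp3 (6089 and 2672). Over all measured genes 5.73% and 5.16% did, so nothing about neighbours is read from these counts. Next in size were Top2a beside Igfbp4 (852 and 1630, 1.91-fold higher) and Csad beside Igfbp6 (533 and 898, 1.69-fold higher). Mrpl23 beside Igf2 was 1.37-fold lower (2529 and 1844). The median log2 ratio of the 10 was 0.04. Rpl37a, on the other side of Igfbp2, read 15228 and 16182, and both neighbours of Igf1 were below the floor on both arrays.

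Outside the family, genes that act on it were taken from 5 lists of pathway genes. Of 78 genes, 67 had a probe set of their own and 60 were measured. Of these, 9 (15%) passed 2-fold on the higher side and 3 (5%) on the lower side, beside 5.73% and 5.16% of all measured genes, and their median log2 ratio was −0.012. Named by rule are the 8 of these 12 whose brighter signal reached 500, the trimmed mean of an array. The other 4, 2 in each direction, were dimmer and are given with their lists.

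The regulators of IGF binding proteins held the widest differences. Of 11 measured, 2 lay above and 1 below 2-fold, where 5.73% and 5.16% of all measured genes did, and nothing is read from these counts. Pappa, which encodes the protease PAPP-A that cleaves IGFBP-4, read 251 in wild-type and 1063 in null MEFs, 4.24-fold higher, and was at least 2.67-fold higher at another probe set. Pappa2, its relative that cleaves IGFBP-3 and IGFBP-5, read 94.6 and 4195, at least 41.9-fold higher at its only probe set. Stc1, a stanniocalcin that can inhibit PAPP-A, read 904 and 130, 6.95-fold lower. Its other probe set gave no measurable signal (20.2 and 29.5). Stc2, the related inhibitor, was 1.80-fold lower (973 and 540), and the protease Htra1 was near equal (8650 and 8183). Pappa and Pappa2 were thus both on the higher side, and RNA of their measured substrates Igfbp4 and Igfbp5 differed less than 2-fold. Cleavage acts on the proteins, which RNA signals do not measure.

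Receptor adaptors and the PI3K-AKT-mTOR branch had 4 of 27 measured genes above and 2 below 2-fold (median log2 ratio −0.074). Irs1, the docking protein that links the IGF-I receptor to PI3K, was 5.14-fold higher (390 and 2005). Grb14, an adaptor that restrains the insulin receptor, was 8.80-fold higher (154 and 1355), with its other probe set below the floor. Pik3r1, a regulatory subunit of PI3K, read 557 and 1491 at its brightest probe set, 2.67-fold higher. Others gave 2.29-fold and 1.75-fold. Of the dimmer genes past 2-fold, Pik3r3 was 2.63-fold higher (158 and 415) and Pik3cb 2.56-fold lower (384 and 150). Irs2, under the floor in null MEFs, was at least 2.09-fold lower (209 and 12.5). Grb10, an imprinted adaptor of the same group as Grb14, was 1.33-fold higher (6558 and 8744), and the kinase Akt1 was near equal (3263 and 3167). In the RAS-ERK branch 0 of 8 measured genes passed 2-fold either way. Over all measured genes 5.73% did on the higher and 5.16% on the lower side, so nothing is read from the counts of either branch.

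**Figure D3:**
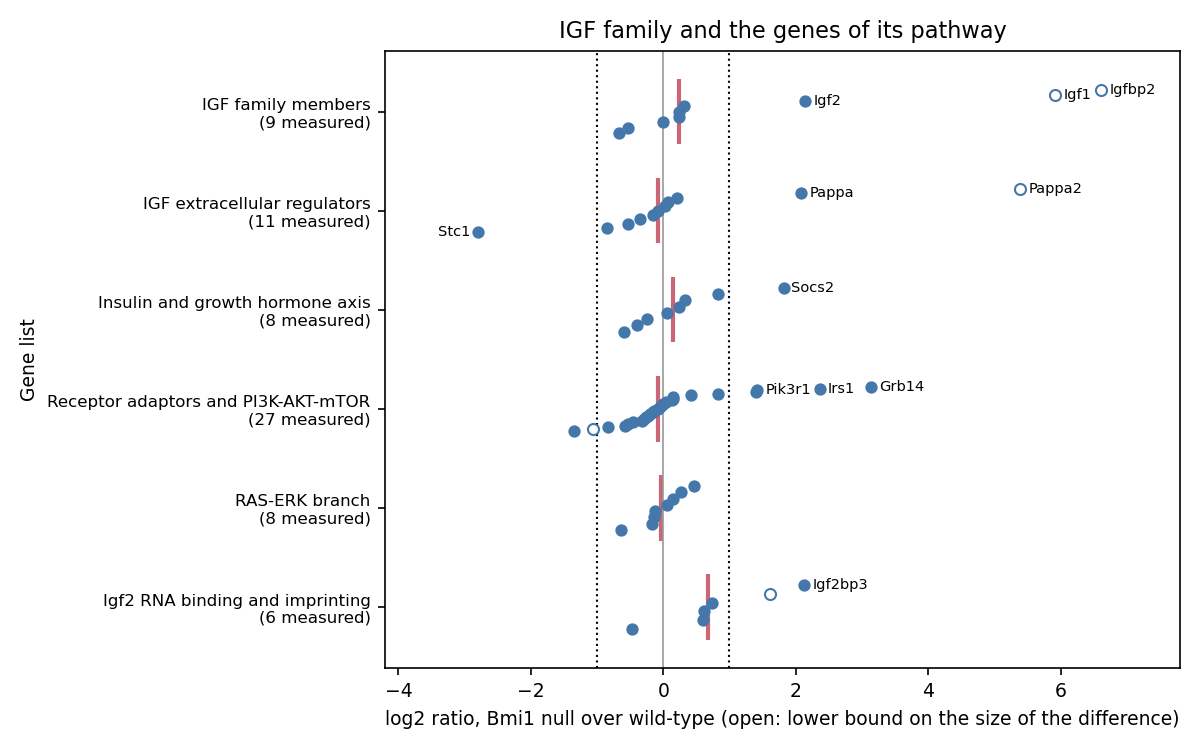
Log2 ratio, null over wild-type (x axis), of each measured gene of the IGF family and of 5 pathway lists (y axis). Filled points are above the floor on both arrays, open points are bounds, red bars are medians and dotted lines mark 2-fold. Pappa2 and Pappa lie to the right and Stc1 to the left of the regulators, and all 8 measured genes of the RAS-ERK branch lie within 2-fold. Of all measured genes 5.73% lay past 2-fold on the higher and 5.16% on the lower side.

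On the insulin and growth hormone axis, Socs2 alone of 8 measured genes passed 2-fold. Socs2, a feedback inhibitor of growth hormone signalling, read 556 and 1959 at its brightest probe set, 3.52-fold higher, and 594 and 1695 at another, 2.85-fold higher. Further Socs2 probe sets with wild-type signals under the floor gave bounds of 1.01-fold and 1.32-fold. The growth hormone receptor Ghr was near equal (4207 and 4389), and the insulin receptor Insr read 841 and 708. Among genes that bind Igf2 RNA or act on imprinting, 2 of 6 measured lay above 2-fold and 0 below. Since 5.73% of all measured genes lay above and 5.16% below 2-fold, nothing is read from counts of so few genes. Plagl1, under the floor in wild-type MEFs (43.4 and 305), was at least 3.05-fold higher. Igf2bp3, an RNA-binding protein of embryo and tumour cells, was 4.38-fold higher (178 and 778) and 5.83-fold at another probe set (123 and 719). The remaining 4 Igf2bp3 probe sets had wild-type signals under the floor and gave bounds from 1.09-fold to 5.62-fold. Igf2bp1 read 347 and 533 at its brightest probe set, 1.54-fold higher. Others were 1.79-fold and 1.68-fold higher and, at a probe set shared by similar sequences (_x_at), 1.06-fold lower (394 and 371).

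Markers of cell types known to make IGFs and their binding proteins were read beside these results. In bulk RNA, fewer cells of a type and less RNA per cell cannot be told apart. Hepatocyte markers, of a tissue that secretes IGF-I, were below the floor on both arrays for all 6 on the array, with a summed signal of 204 in wild-type and 224 in null MEFs, and albumin read 70.5 and 66.4. Some markers of other cell types were higher in the same line as Igf1 and Igfbp2, while others were lower or below the floor. All 6 smooth muscle markers were measured and 4 lay above 2-fold, with a summed signal of 21376 and 36566, and the defining marker Myh11 read 6.31 and 449. Acta2 (12575 and 18218) and Tagln (8334 and 13058) lay under 2-fold and held most of both sums. Of 8 mesothelial markers, 6 were measured, 2 above and 1 below 2-fold, with sums of 7243 and 17765. Gpm6a, a membrane glycoprotein, read 4.52 and 8828, at least 88.3-fold higher, and made up most of the rise in that sum. Upk3b was 9.01-fold higher and Msln 2.92-fold lower, while Wt1 and Krt19 were below the floor on both arrays. Of 5 adipocyte markers, 2 were measured and 1 lay above 2-fold, with sums of 1232 and 7390. That marker was Lpl, lipoprotein lipase (1114 and 7104, 6.37-fold higher), which carried nearly all of the sum, while Adipoq, Pparg and Fabp4 were below the floor. Each of the remaining lists had 7 markers. Of the epithelial markers 2 were measured (sums of 507 and 1286), and Epcam lay above 2-fold (149 and 834, 5.59-fold higher). Cdh1, Krt8 and Krt18 were below the floor on both arrays. Skeletal muscle, endothelial, and macrophage and blood markers had 3 measured each, with 0 above and 1 below 2-fold, and sums of 965 and 687, 442 and 405, and 1605 and 968. Of all measured genes 5.73% lay above and 5.16% below 2-fold, and nothing is read from counts of so few markers. The part of these cell types in the IGF family differences was not tested.

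**Figure D4:**
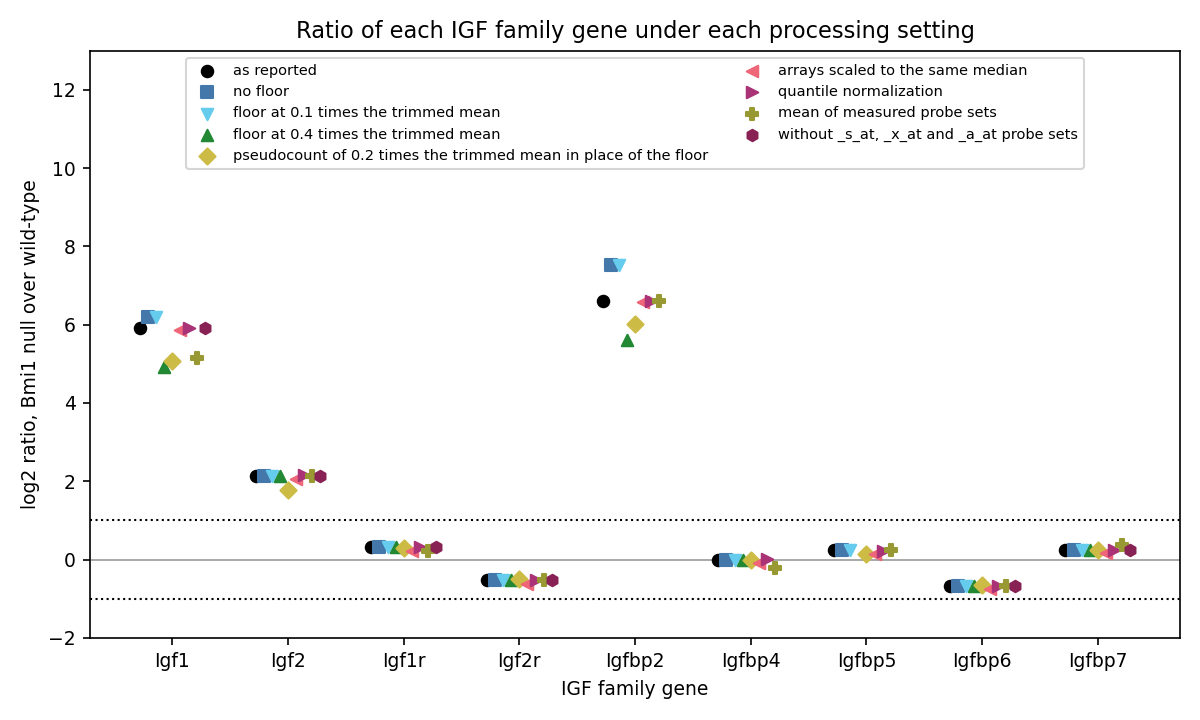
Log2 ratio, null over wild-type (y axis), of each of the 9 measured IGF family genes (x axis) as reported and under 8 other processing settings (symbols), with dotted lines at 2-fold. Igf1, Igf2 and Igfbp2 lie above 2-fold in every setting that gave them a value, from 1.78 for Igf2 to 7.53 for Igfbp2, and the other 6 stay between −0.75 and 0.37.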

How the data were processed

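RNA of 1 wild-type and 1 Bmi1 null MEF culture was hybridised to Affymetrix Mouse Genome 430 2.0 arrays. The authors deposited 1 MAS5 intensity per probe set, on a linear scale and scaled per array, since the mean after trimming 2% at each end was 500 on both; the scaling settings are not given in the sources used here. Intensities ran from 0.0309 to 23377 and from 0.0356 to 22149. The platform annotation paired 34958 of 45101 probe sets with 1 gene symbol, and these were used for genes. Another 932 carried more than 1 symbol and 9211 carried no symbol. Symbols were checked against RefSeq (GRCm38) and 0 changed.

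Signals below 100 were set to that floor, log2 ratios were taken, and the probe set of highest mean log2 signal stood for a gene. With 1 array per group no test was possible, and a fold of 2 was used as threshold. The number of arrays limits the precision. Members, lists and threshold were chosen with earlier results of these data known. Named were all members and their probe sets, the genes that check the labels, listed pathway genes past 2-fold with a signal of at least 500, and 8 pathway genes whatever their value. Other genes named beside the family (markers, neighbours, pathway genes under 2-fold and the dimmer Irs2, Pik3cb, Pik3r3 and Plagl1) were chosen after their values were seen. H19, Igf2bp2 and the Y-linked gene Ddx3y were not analysed here. Alternatives covered the floor, a pseudocount, the scaling and the choice of probe set. The calculation was tested on simulated data. Python 3.11.15, pandas 2.3.3 and scipy 1.17.1 were used.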

Additional observations from a re-analysis of the deposited data

How the results depend on the processing

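No paired analysis was possible because each group had 1 array. The counts of family genes at least 2-fold higher and lower were 3 and 0 under all 8 alternatives, except that 2 were higher without probe sets of the suffixes _s_at, _x_at and _a_at, where Igfbp2, Igfbp4 and Igfbp5 had no measured probe set left. The family median ran from 0.16 (arrays scaled to the same median) to 0.28. The ratio of Igf1 ran from 4.92 (floor at 0.4 times the trimmed mean) to 6.19 (no floor), and that of Igfbp2 from 5.61 to 7.53 under the same pair of settings, since the floor stands in for the wild-type signal. Igf2 fell to 1.78 with a pseudocount. Igfbp3 had a ratio only in 3 settings, from −0.19 to −0.042. Pathway genes past 2-fold were 9 to 15 against 12, and family probe sets 4 to 8 against 6. Signals near the floor of 100, as for Igfbp5, are close to background, and small differences were not detectable there.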
